A study of Mus musculus with 12 samples.

Results

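The genes described here are 7 genes known for their use by mast cells, measured in cultures labelled as macrophages: Cma1, Mcpt4, Tpsb2, Cpa3, Kit, Fcer1a and Hdc. They were chosen by name, as the probes whose RefSeq transcript belongs to one of these genes. All 7 were measured, by 8 probes, and all 7 stood among the 13283 genes tested. Each of the 8 probes was well above background on all 12 arrays, so no member depended on the filter on dim probes.

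The samples were cells from the abdominal cavity of C57/BL6 mice, grown in DMEM with 10% FBS and profiled on one-colour arrays. There were 4 groups of 3 arrays. KO LPS cells came from GPR15 knockout mice and received LPS, a bacterial cell-wall component, at 100 ng/ml for 4 h, and KO PBS cells came from the same genotype and received PBS. WT LPS and WT PBS cells came from wild-type mice and received the same LPS or PBS. The labels give replicate numbers only, without animals, sex or a purification step, so the p-values below may measure technical spread alone. GPR15 is a G protein-coupled receptor of leukocytes. The Gpr15 probe stayed below the detection limit on all 12 arrays and so gave no check of the KO label. The genotypes also differed in sex-linked RNA: Xist, which coats an inactive X, was detected above background on 0 of 6 KO arrays and 6 of 6 WT arrays, and the Y-linked gene Ddx3y on 6 of 6 KO arrays and 0 of 6 WT arrays. Slide 2 held all KO LPS arrays and KO PBS replicate 3, and slide 1 held KO PBS replicates 1 and 2 and all WT arrays.

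Mast cells are tissue-resident granulocytes that lie along vessels and serous membranes, the abdominal cavity among them, and that store ready-made mediators in granules. Their granules hold proteases and histamine bound to heparin, a sulphated sugar chain carried by the proteoglycan serglycin. Stem cell factor acts through the receptor KIT to keep the cells alive, and IgE bound to its high-affinity receptor on the surface triggers release when an antigen crosslinks it. The rodent peritoneal mast cell is of the connective tissue type, which is known for chymases, tryptases and carboxypeptidase A3. In a bulk sample, fewer cells of a type and less RNA per cell cannot be told apart.

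The labelled cell type had its markers. All 11 macrophage markers examined, among them Adgre1, Csf1r, Cd68 and Itgam, were well above background on all 12 arrays. All 7 B-cell markers were as well, and so were the mast-cell genes described here. The markers of blood granulocytes that resemble mast cells were partly absent: Mcpt8, a protease of mouse basophils, and the eosinophil granule genes Epx and Prg2 were well above background on 0 arrays. Others were present: the eosinophil markers Siglecf, Ccr3 and Il5ra were well above background on 12 arrays and Ear6 on 11, and 6 of 7 basophil markers were tested, all of which also stand in the mast-cell lists.

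The sequence before the start of the gene is shown for the 4 members in whose window a short motif was found. Whether the motif bears on the levels of these genes was not tested. Windows of 250 bases upstream of the RefSeq start (build GRCm38.p6) were at hand for 6 of the 7 members, all but Tpsb2. They were searched on both strands for GATAA, the letters that the GATA factors of the mast-cell lineage bind. A match was found in the windows of Cma1, Mcpt4, Cpa3 and Fcer1a, and not in those of Kit and Hdc; 22.6% of 32851 windows of this length hold one. The motif begins 194 bases before the start in Cma1 and 92 in Fcer1a, both as the reverse complement TTATC, and 102 bases before it in Mcpt4 and 45 in Cpa3. The 4 windows lie on the minus strand and are written 5′ to 3′ in the direction of the gene, with the match in capitals.
Cma1, chr14:55944676-55944925: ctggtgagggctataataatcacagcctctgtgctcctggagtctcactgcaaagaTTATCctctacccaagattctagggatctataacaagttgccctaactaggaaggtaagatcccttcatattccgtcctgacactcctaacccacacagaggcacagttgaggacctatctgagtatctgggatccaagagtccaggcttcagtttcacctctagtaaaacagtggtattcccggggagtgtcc
Mcpt4, chr14:56062311-56062560: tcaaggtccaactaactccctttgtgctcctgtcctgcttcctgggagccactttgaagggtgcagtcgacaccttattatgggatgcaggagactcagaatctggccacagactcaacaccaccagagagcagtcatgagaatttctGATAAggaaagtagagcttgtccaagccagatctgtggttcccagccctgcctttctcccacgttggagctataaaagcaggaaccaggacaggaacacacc
Cpa3, chr3:20242182-20242431: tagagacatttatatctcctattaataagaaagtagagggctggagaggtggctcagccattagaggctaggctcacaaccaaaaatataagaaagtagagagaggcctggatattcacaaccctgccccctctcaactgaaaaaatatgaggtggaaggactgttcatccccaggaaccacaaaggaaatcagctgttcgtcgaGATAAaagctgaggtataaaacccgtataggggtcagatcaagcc
Fcer1a, chr1:173227230-173227479: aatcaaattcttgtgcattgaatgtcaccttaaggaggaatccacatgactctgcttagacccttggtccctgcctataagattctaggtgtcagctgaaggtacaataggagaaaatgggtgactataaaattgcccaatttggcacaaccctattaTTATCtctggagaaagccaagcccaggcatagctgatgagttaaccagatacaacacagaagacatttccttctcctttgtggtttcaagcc
A search of the same windows for a kappa-B pattern of 3 G, any 5 bases and 2 C, which 45.8% of all windows hold, matched Cma1, Kit and Fcer1a, and not Mcpt4, Cpa3 or Hdc. The E-box pattern CANNTG matched Cma1, Cpa3, Fcer1a and Hdc, against 66.2% of all windows. The AP-1 pattern TGANTCA matched none of the 6, against 6.75% of all windows. None of the GATAA matches overlapped a match to another pattern. These matches describe letters in the windows and say nothing of binding.

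Levels below are log2 signals relative to the 75th percentile of each array, so 0 is the signal that 3 in 4 spots lie under. They are compared between groups for 1 probe at a time and not between genes. The 4 protease genes all had positive levels on every array, with raw signals between 2990 and 20300. Differences are log2 differences ± SE of one limma fit over all 12 arrays, n = 3 arrays per group, with p-values adjusted by Benjamini-Hochberg over all genes tested. A gene is said to rise or fall where that adjusted p was below 0.05.

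Cma1 encodes mast-cell chymase, a granule protease also known as mouse mast cell protease 5. Its level was 4.69, 4.73 and 4.67 on the KO LPS arrays and 4.56, 4.46 and 4.49 on the KO PBS arrays. It was 5.15, 5.21 and 4.90 on the WT LPS arrays and 4.83, 4.88 and 4.47 on the WT PBS arrays. The KO LPS arrays lay above the KO PBS arrays and below the WT LPS arrays without overlap, whereas WT PBS replicate 3 fell among the KO PBS arrays.

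Mcpt4 encodes mouse mast cell protease 4, the chymase that serves in the mouse the part of human chymase in connective tissue. Its level was 4.85, 4.86 and 4.93 on the KO LPS arrays and 4.59, 4.46 and 4.76 on the KO PBS arrays. It was 5.34, 5.44 and 5.16 on the WT LPS arrays and 5.13, 5.23 and 4.85 on the WT PBS arrays. All KO arrays lay below all WT arrays of the same treatment.

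Tpsb2 encodes mouse mast cell protease 6, a tryptase stored as a tetramer with heparin. Its level was 2.82, 2.74 and 2.84 on the KO LPS arrays, 2.74, 2.54 and 2.66 on the KO PBS arrays, 3.07, 3.11 and 2.90 on the WT LPS arrays, and 2.93, 3.02 and 2.69 on the WT PBS arrays. Of the 3 WT PBS arrays, replicate 3 alone lay inside the range of KO PBS.

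Cpa3 encodes carboxypeptidase A3, which trims peptides and is stored together with the CMA1 protease. Its level was 3.45, 3.49 and 3.54 on the KO LPS arrays, 2.93, 2.74 and 3.16 on the KO PBS arrays, 3.82, 3.89 and 3.46 on the WT LPS arrays, and 3.44, 3.59 and 3.00 on the WT PBS arrays. The KO LPS arrays all lay above the KO PBS arrays, while the WT LPS and WT PBS arrays overlapped through the low value of WT LPS replicate 3.

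Kit encodes the receptor for stem cell factor. Its level was 0.88, 0.73 and 0.85 on the KO LPS arrays, 1.23, 0.98 and 1.18 on the KO PBS arrays, 0.75, 0.83 and 0.49 on the WT LPS arrays, and 1.18, 1.24 and 0.74 on the WT PBS arrays. It was the single member whose mean was lower with LPS than with PBS in both genotypes.

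Fcer1a encodes the IgE-binding alpha chain of the high-affinity IgE receptor. Its level was -1.05, -0.88 and -0.89 on the KO LPS arrays, -1.11, -1.34 and -1.12 on the KO PBS arrays, -0.55, -0.33 and -0.96 on the WT LPS arrays, and -0.54, -0.36 and -1.09 on the WT PBS arrays. Its probe gave raw signals of 203 to 403, while signals counted as well above background began at 18.4 to 36.8, depending on the array. WT replicate 3 was the lowest of its group in both treatments, as it was for the 4 proteases and Kit.

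Hdc encodes histidine decarboxylase, the enzyme that makes histamine. Its brighter probe read 6.82, 7.01 and 6.96 on the KO LPS arrays, 5.55, 5.33 and 5.61 on the KO PBS arrays, 7.19, 7.29 and 7.27 on the WT LPS arrays, and 5.81, 5.89 and 5.44 on the WT PBS arrays. Its other probe read 2.14, 2.15 and 2.09 on the KO LPS arrays, 0.50, 0.40 and 0.46 on the KO PBS arrays, 2.09, 2.07 and 2.41 on the WT LPS arrays, and 0.60, 0.71 and 0.40 on the WT PBS arrays. On both probes every LPS array lay above every PBS array.

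**Figure D1:**
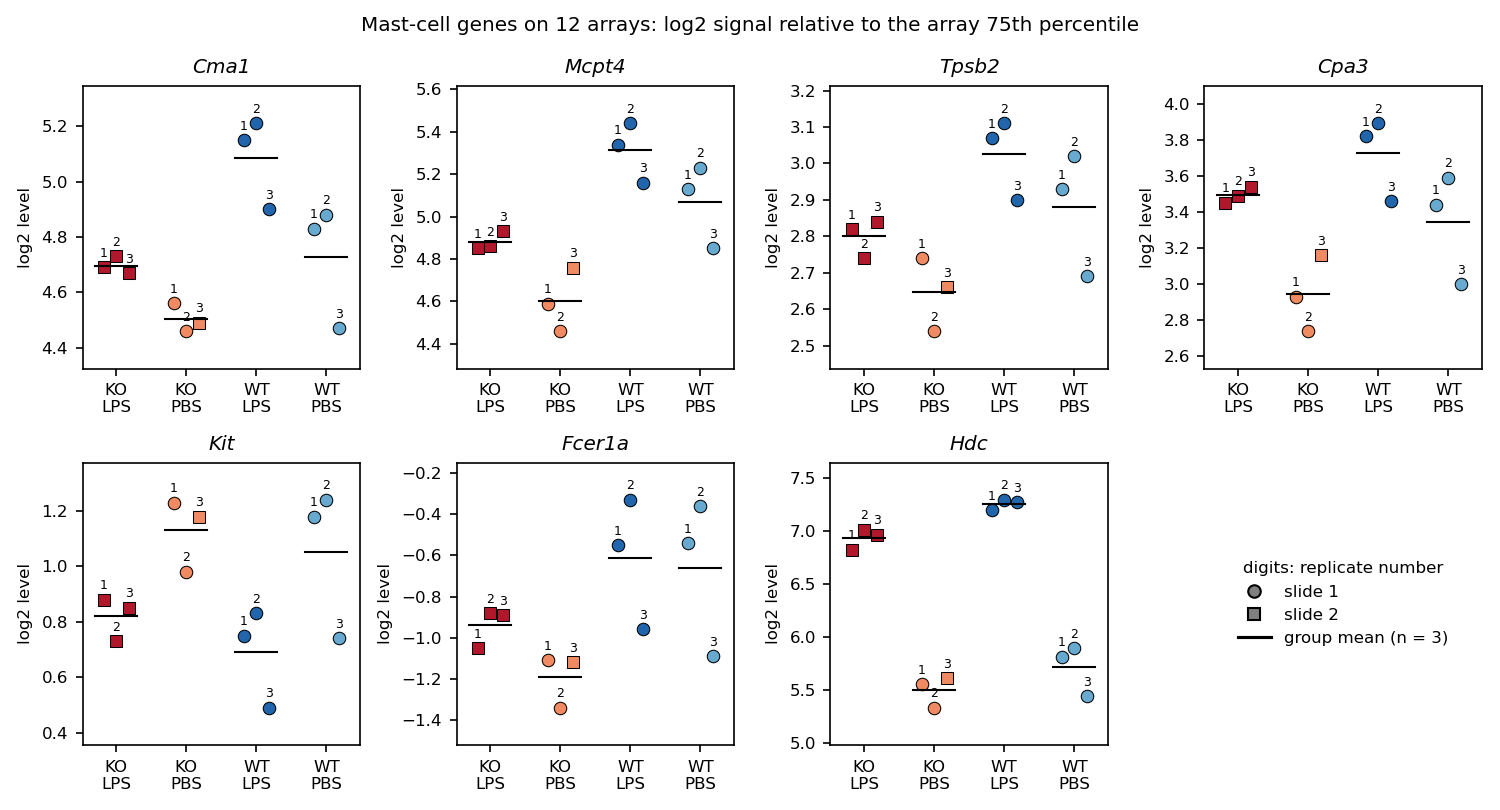
Levels of the 7 mast-cell genes on each array, as log2 signal relative to the array's 75th percentile (vertical axis, a separate scale for each gene), in the KO LPS, KO PBS, WT LPS and WT PBS groups. Points are arrays with their replicate numbers, circles lie on slide 1 and squares on slide 2, and lines are group means of 3 arrays; Hdc stands apart with LPS in both genotypes, at 6.82 or more with LPS and 5.89 or less with PBS.

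The order of the group means differed between genes. For Cma1, Mcpt4 and Tpsb2 it ran, from the lowest, KO PBS, KO LPS, WT PBS, WT LPS. For Cpa3 and Hdc the KO LPS mean lay above the WT PBS mean. The KO LPS and WT PBS arrays overlapped for all 4 proteases, so the order of these neighbours was within the spread of arrays. For Fcer1a the means were -0.94 in KO LPS, -1.19 in KO PBS, -0.61 in WT LPS and -0.67 in WT PBS, where the WT groups differed by 0.05 and their arrays overlapped. For Kit the order ran WT LPS, KO LPS, WT PBS, KO PBS, with a difference of 0.07 between the PBS groups and 0.13 between the LPS groups. Neither Kit difference passed the test, with adjusted p = 0.735 in PBS and 0.452 after LPS in limma.

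How these genes responded to LPS in KO cells was the first comparison. Hdc rose most, by 1.44 ± 0.11, or 2.71-fold (adjusted p = 3.5e-07, limma), and its other probe rose by 1.68 ± 0.094 (adjusted p = 4.6e-08). Cpa3 rose by 0.55 ± 0.15, or 1.46-fold (adjusted p = 0.00725), and Mcpt4 by 0.28 ± 0.10, or 1.21-fold (adjusted p = 0.0319). The other 4 did not pass: Cma1 at 0.19 ± 0.10, Tpsb2 at 0.15 ± 0.085, Fcer1a at 0.25 ± 0.18 and Kit at -0.31 ± 0.13, with adjusted p between 0.0512 and 0.249. So 3 of 7 members rose and 0 fell, where 67% of all genes tested passed, 35.1% higher and 32% lower. The KO LPS and KO PBS arrays of all 7 members did not overlap, as for 72.1% of all genes tested (37.5% higher, 34.6% lower). The median difference was 0.25 over the members and 0.04 over all genes.

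LPS and PBS arrays of KO cells share slide 2 only through KO PBS replicate 3. Against that single array, the KO LPS mean of Hdc was higher by 1.33 (1.67 on the other probe), Cpa3 by 0.33 and Mcpt4 by 0.12. With slide as a term in the fit, Hdc alone still passed, with adjusted p = 5.02e-05, and Cpa3 and Mcpt4 had adjusted p = 0.203 and 0.488 in limma. Of all genes tested, 53% passed in that fit, against 67% without the term. Mcpt4 also missed the threshold with the 75th percentile taken over probes detected on all arrays (0.18, adjusted p = 0.129) and with quantile normalization (0.14, adjusted p = 0.201), and passed in 16 of 25 alternatives; Cpa3 passed in 24 of 25.

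In WT cells, where all 6 arrays lay on slide 1, LPS gave the same leading gene. Hdc rose by 1.54 ± 0.11, or 2.90-fold (adjusted p = 1.57e-07, limma), a difference above that of 96.3% of genes tested, and its other probe rose by 1.62 ± 0.094 (adjusted p = 4.38e-08). Cma1 rose by 0.36 ± 0.10, or 1.28-fold (adjusted p = 0.00811), and Cpa3 by 0.38 ± 0.15, or 1.30-fold (adjusted p = 0.0458). Kit fell by 0.36 ± 0.13 on the log2 scale, to 0.778 of the PBS level (adjusted p = 0.0269). Mcpt4 at 0.24 ± 0.10, Tpsb2 at 0.15 ± 0.085 and Fcer1a at 0.05 ± 0.18 did not pass, with adjusted p = 0.0555, 0.153 and 0.818. Thus 3 members rose, 1 fell and 3 did not pass, where 64.7% of all genes tested passed, 33.7% higher and 31% lower. The arrays did not overlap for Cma1 and Hdc, 2 of 7 members, against 69.4% of all genes (36.8% higher, 32.6% lower). The median difference was 0.24 over the members and 0.0271 over all genes.

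The WT PBS and WT LPS arrays numbered 2 and 3 deviated most like their equals (r = 0.371 and 0.481), while those numbered 1 did not (r = 0.105). With the replicate number as a block among the WT arrays, 6 of 7 members passed, as did 73% of all genes in that fit. Mcpt4 then had 0.24 ± 0.041 (adjusted p = 0.00217, limma) and Tpsb2 0.15 ± 0.039 (adjusted p = 0.0156), each higher with LPS in 3 of 3 number pairs, and Fcer1a did not pass (adjusted p = 0.444). The small rises depended on how the arrays were scaled. With the 75th percentile taken over probes detected on all arrays, which shifts the median of all genes to -0.13 in this comparison, Cma1 had 0.20 (adjusted p = 0.0795, limma), Cpa3 0.22 (adjusted p = 0.211), Tpsb2 -0.01 and Fcer1a -0.10. The share of higher genes among all genes called was 37% under that scaling, against 52.1% with all spots. With quantile normalization Cma1 had 0.14 and Cpa3 0.20, with adjusted p = 0.169 and 0.251. Hdc and Kit passed in both, but Kit did not pass with median scaling (-0.32, adjusted p = 0.059), with slide 1 arrays alone (0.0614), with only the arrays compared (0.0738), or without WT PBS replicate 1, WT PBS replicate 2 or WT LPS replicate 3 (0.0991, 0.109 and 0.109), and passed in 20 of 26 alternatives.

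Whether LPS acted differently in KO than in WT cells was tested as the interaction, the LPS difference in KO less that in WT. It passed for 0 of 7 members in limma, where 4.31% of all genes passed, 0.926% higher and 3.39% lower, and 0 had an unadjusted p under 0.05. For Hdc it was -0.10, with a 95% interval of -0.44 to 0.24. For the proteases it was -0.17 for Cma1 (-0.48 to 0.15), 0.03 for Mcpt4 (-0.29 to 0.35), 0.01 for Tpsb2 (-0.26 to 0.27) and 0.17 for Cpa3 (-0.30 to 0.64). For the receptors it was 0.05 for Kit (-0.35 to 0.45) and 0.20 for Fcer1a (-0.38 to 0.77). A gene that passed in one genotype and not in the other, such as Cma1, Mcpt4 or Kit, was therefore not shown to respond differently.

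KO and WT cells after LPS were compared next. Mcpt4 fell by 0.43 ± 0.10 on the log2 scale in KO cells, to 0.740 of the WT level (adjusted p = 0.00711, limma). Cma1 fell by 0.39 ± 0.10, to 0.761 (adjusted p = 0.0107), and Hdc by 0.32 ± 0.11, to 0.802 (adjusted p = 0.037). The other probe of Hdc did not show this, with -0.06 ± 0.094 (adjusted p = 0.632), and its arrays overlapped. Tpsb2 at -0.23 ± 0.085 (adjusted p = 0.051), Cpa3 at -0.23 ± 0.15 (adjusted p = 0.25), Fcer1a at -0.33 ± 0.18 (adjusted p = 0.176) and Kit at 0.13 ± 0.13 did not pass. In all, 3 of 7 members were lower and 0 higher, where 39.5% of all genes passed, 19.5% lower and 20% higher. The KO LPS and WT LPS arrays of 4 members, Cma1, Mcpt4, Tpsb2 and Hdc, did not overlap, against 58.4% of all genes (28.2% higher, 30.1% lower).

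These KO and WT arrays never shared a slide, so slide and genotype cannot be told apart after LPS. With slide as a term, which leans on the single KO PBS array of slide 2, 0 of 7 members passed in limma. Of all genes tested, 5.84% passed in that fit, against 39.5% without the term. With the term, Mcpt4 had -0.67 (adjusted p = 0.0511), Cma1 -0.37 (adjusted p = 0.294) and Hdc -0.49 (adjusted p = 0.179). Among markers of other cell types, 4 of 7 B-cell markers were lower in KO cells after LPS and 0 were higher. The summed level of these 7 markers, in log2, was 5.73 to 5.75 on KO LPS arrays and 6.06 to 6.31 on WT LPS arrays. Of 11 macrophage markers, 4 were higher in KO cells and 1 lower. Of 6 T-cell markers, 2 were higher and 2 lower, and of 3 NK-cell markers 1 and 1. Of all genes tested, 20% were higher and 19.5% lower. The part of cell composition, or of sex, in the mast-cell differences was not tested.

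In PBS, Mcpt4 fell in KO cells by 0.47 ± 0.10 on the log2 scale, to 0.723 of the WT level (adjusted p = 0.0124, limma). The other 6 members did not pass: Fcer1a at -0.52 ± 0.18, Cpa3 at -0.40 ± 0.15, Cma1 at -0.23 ± 0.10, Tpsb2 at -0.23 ± 0.085, Hdc at -0.22 ± 0.11 and Kit at 0.07 ± 0.13, with adjusted p between 0.0814 and 0.735. The background was 14.1% of all genes, 6.05% lower and 8.06% higher. The arrays of 2 members, Mcpt4 and Fcer1a, did not overlap, against 30.5% of all genes (16.7% higher, 13.8% lower). Within slide 1, 2 KO PBS arrays lay below 3 WT PBS arrays by 0.55 for Mcpt4 (means of 4.52 and 5.07), and a fit of the slide 1 arrays alone gave it adjusted p = 0.0332 in limma. The within-slide difference was -0.56 for Fcer1a, -0.51 for Cpa3, -0.27 for Hdc, -0.24 for Tpsb2, -0.22 for Cma1 and 0.05 for Kit. Of the B-cell markers 4 of 7 were lower and 0 higher in KO cells in PBS as well. Their summed log2 level was 6.76 to 6.83 on KO PBS arrays and 7.02 to 7.36 on WT PBS arrays. Of 11 macrophage markers, 4 were higher and 0 lower, and of 6 T-cell markers 0 were higher and 2 lower.

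**Figure D2:**
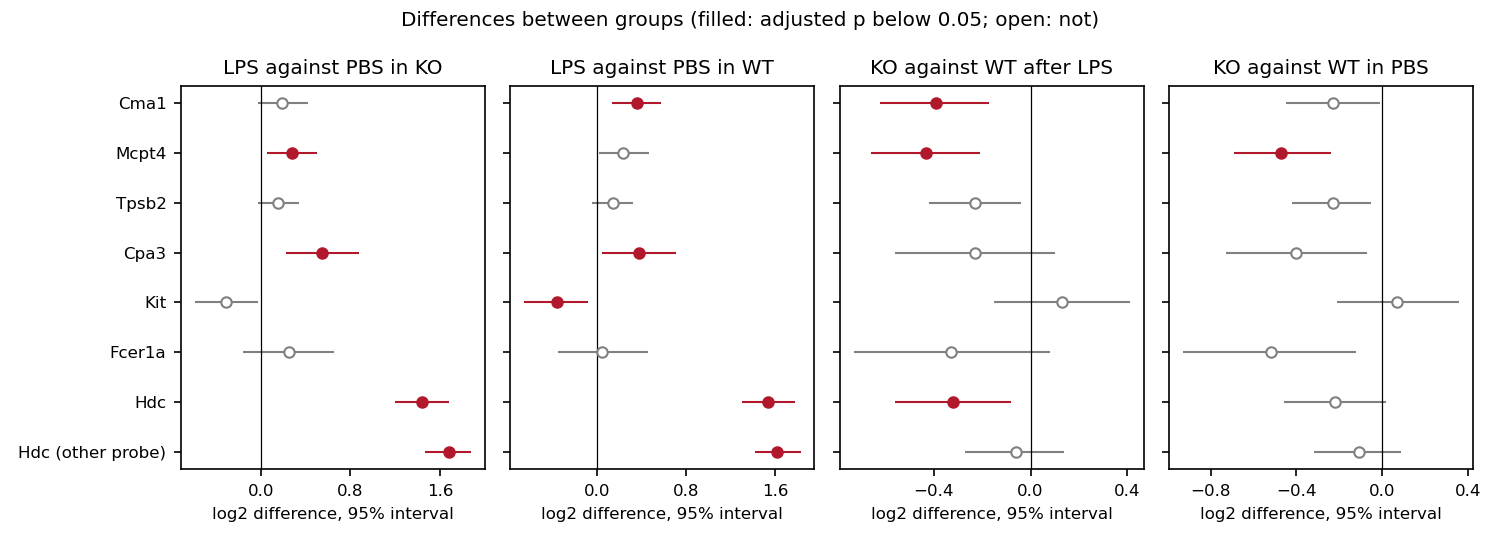
Log2 differences of the 7 mast-cell genes and of the other Hdc probe (horizontal axis, with 95% intervals of the limma fit, n = 3 arrays per group) for LPS against PBS in KO, LPS against PBS in WT, KO against WT after LPS and KO against WT in PBS. Filled points passed an adjusted p of 0.05: Hdc rose with LPS on both probes in both genotypes, and Mcpt4 was lower in KO cells after LPS (-0.43) and in PBS (-0.47).

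Replicate 3 of the WT groups read low for most members. When each array was left out, 0 to 6 members passed for KO against WT in PBS and 2 to 4 after LPS. Of all genes, 7.04% to 19.7% passed in PBS and 27.8% to 45.8% after LPS in these fits. On WT PBS replicate 3 all 7 members lay below their group mean, by a median of 0.28 on the log2 scale, and 7.2% of all genes lay that low or lower. On WT LPS replicate 3, 6 of 7 did, with a median deviation of -0.19 that 9.52% of genes reached, and Hdc was at 0.02. For 6 of 7 members, all but Hdc, replicate 3 was the lowest WT array in both treatments, against 28% of all genes. The B-cell markers deviated the other way on the same arrays, by 0.20 and 0.17, and the median macrophage marker by -0.04 and 0.07. Of the other marker lists, some went the same way as the members and some did not. The medians on WT PBS and WT LPS replicate 3 were -0.40 and -0.78 for 3 NK-cell markers, Gzma, Gzmb and Prf1. The NK-cell markers Ncr1 and Klrb1c were well above background on 0 arrays. For 6 basophil markers, all of them also in the mast-cell lists, the medians were -0.18 and -0.23, and for 5 neutrophil markers -0.05 and -0.55. They were 0.13 and 0.05 for 6 T-cell markers, and 0 and 0.40 for 4 eosinophil markers. The part of cell composition in these deviations was not tested.

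Without WT PBS replicate 3, which was set aside after its values were seen, 6 of 7 members were lower in KO cells in PBS, with Kit as the exception. The differences were then -0.74 for Fcer1a, -0.58 for Mcpt4, -0.57 for Cpa3, -0.36 for Cma1, -0.36 for Hdc and -0.33 for Tpsb2, with adjusted p of at most 0.0143 in limma. In that fit 19.7% of all genes passed, 9.92% lower, against 14.1% and 6.05% with all arrays. Without WT PBS replicate 1 or 2, in contrast, 0 members passed, Mcpt4 had adjusted p = 0.054 or 0.0519, and 7.04% or 7.85% of all genes passed. Without replicate 3 of both WT groups, 6 of 7 were lower in KO cells after LPS too, again all but Kit, at -0.51 for Mcpt4, -0.50 for Fcer1a, -0.49 for Cma1, -0.36 for Cpa3, -0.31 for Hdc and -0.29 for Tpsb2, where 44.5% of all genes passed, 23.2% lower. For LPS in KO, 7 members passed in that fit, since the WT arrays share the estimate of the spread, and 70.2% of all genes did. WT LPS replicate 3, like WT PBS replicate 3, was set aside after its values were seen. Leaving out arrays on which most members were low raises their WT means. The added calls for KO against WT therefore give no independent support for lower levels in KO cells.

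The members deviated together from array to array. Over the 12 arrays, the deviations from the group means correlated at 0.66 to 0.99 in the 21 pairs of members, with a median of 0.89. The arrays share their slides and scaling, and without the WT replicate 3 arrays the range was 0.22 to 0.98 with a median of 0.63 over 10 arrays. Kit, whose level went against the proteases between treatments (r = -0.264 with their mean level), had deviations that went with theirs (r = 0.959). Fcer1a had r = 0.968 and Hdc r = 0.768 with the protease deviations. Such likeness was not rare: 8.63% of genes tested had r above 0.8 with the protease deviations.

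**Figure D3:**
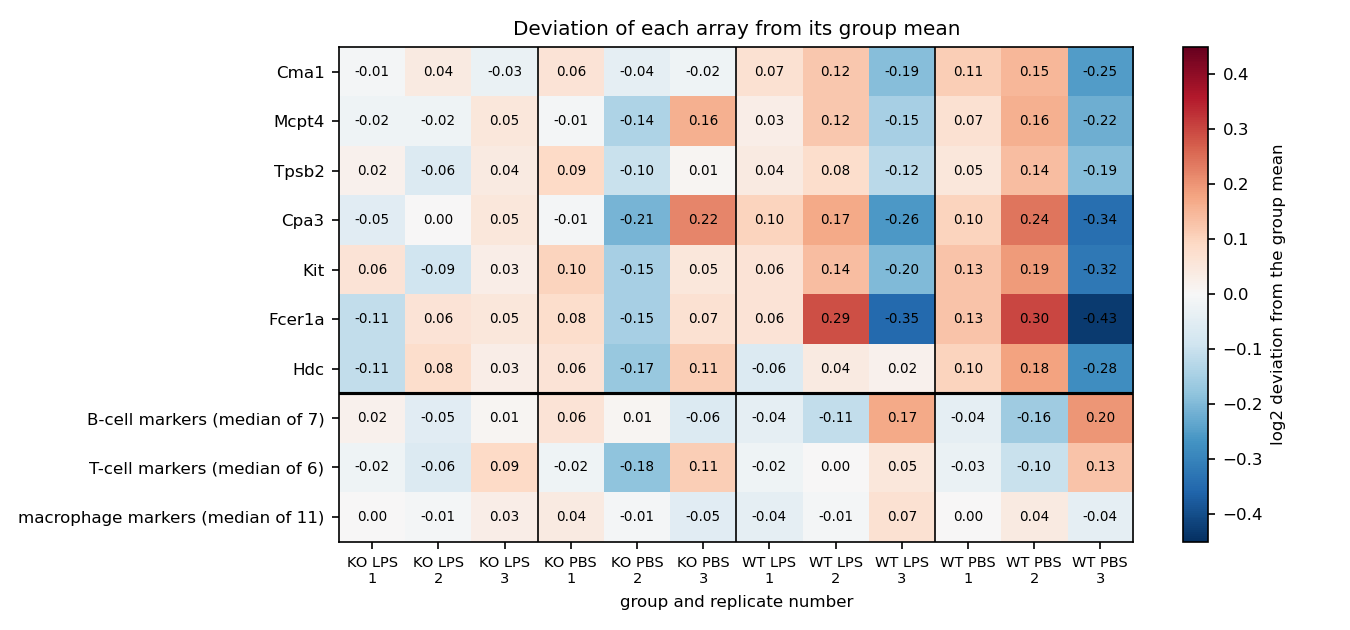
Log2 deviation of each array from its group mean for the 7 mast-cell genes, and the median deviation of 7 B-cell, 6 T-cell and 11 macrophage markers (rows), by group and replicate number (columns). Blue is below and red above the group mean; WT PBS replicate 3 was below it for all 7 mast-cell genes (-0.19 to -0.43) and above it for the B-cell median (0.20).

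Likeness was measured as Pearson's r over the 12 arrays. The gene whose level was most like the mean of the 4 proteases was Lysmd3 (0.98), followed by Ankhd1 (0.977), Arhgap30 (0.972), Plekhn1 and Crispld2 (0.967 each), Cpne8, Cdc27, Tmed9, Kctd12 and Lyn (0.95). By deviations from the group means the list was led by Gnai1 (0.987), Prok2 (0.985) and Nrp2 (0.984), with Lrrc25, B4galt5, Ifitm7, Mt2, Spred2, Gata3 and Eps8 after them (0.979 or more). The 2 lists share no gene. The levels most like those of Hdc were Bcl3, Ildr1 and Gfpt2 (0.995 each), Jarid2 and Rbm27 (0.994 each), and those most like Kit were Cmtm3 (0.975), Gfra2 (0.953), Gpr162 and Ccl9 (0.949 each) and Uaca (0.938). By deviations, Catsperg1, Mst1r, Cd200, Pmp22 and Tnfsf9 were most like Hdc (0.919 to 0.929), and Sdc4, Vamp4, Ell, Sh2b2 and the chymase gene Cma2 were most like Kit (0.971 to 0.974). These correlations describe 12 arrays in 4 groups.

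Around the members, 8 wider lists of mast-cell genes held 64 genes, of which 62 had a probe and 49 were tested. Many of the 49, such as Fcer1g, Srgn, Mitf and the IgE signalling genes, are also expressed by macrophages. LPS raised 16 and lowered 17 in KO cells, and raised 16 and lowered 16 in WT cells, near the 67% and 64.7% of all genes tested that passed. KO cells had 8 higher and 13 lower after LPS, and 5 higher and 5 lower in PBS, where 39.5% and 14.1% of all genes passed. Of the 42 genes that are no members, 21 were lowest on replicate 3 among the WT arrays of both treatments, against 28% of all genes.

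Among the connective tissue proteases, 7 of 9 genes were tested. Cma2, a chymase gene beside Cma1, read 3.72, 3.68 and 3.82 on KO LPS arrays, 3.68, 3.50 and 3.66 on KO PBS arrays, 4.27, 4.35 and 4.08 on WT LPS arrays, and 4.15, 4.21 and 3.83 on WT PBS arrays. It was lower in KO cells by -0.49 ± 0.099 after LPS and by -0.45 in PBS (adjusted p = 0.00315 and 0.0123, limma), and did not pass for LPS in KO or WT (0.13 and 0.17). Ctsg, cathepsin G of neutrophils and mast cells, went the other way, at 1.13 ± 0.20 after LPS and 1.1 ± 0.20 in PBS in KO relative to WT cells (adjusted p = 0.00141 and 0.00372). Of 9 neutrophil markers, Ngp, Ltf and Cxcr2 were well above background on 0 arrays, Ly6g had no probe, and 5 were tested. Of these, 2 were higher in KO cells in each treatment, S100a9 with Elane after LPS and with Camp in PBS, and 0 lower. Of all genes tested, 20% were higher after LPS and 8.06% in PBS. S100a9, a calcium-binding protein of neutrophils, was at 2.33 ± 0.50 after LPS and 2.64 ± 0.50 in PBS (adjusted p = 0.00436 and 0.00562, limma). S100a8 did not pass (-0.16 and 0.77). Elane read 0.89, 0.92 and 1.02 on KO LPS arrays, all on slide 2, and 0, 0.02 and 0.12 on WT LPS arrays, all on slide 1. In PBS it read 0.76 and 0.75 on the KO arrays of slide 1, 1.64 on the KO array of slide 2, and 0.75, 0.72 and 0.65 on WT arrays. The part of the slide in the Elane difference was not tested. The summed log2 level of the 5 tested neutrophil markers was 2.54 to 3.18 on KO PBS arrays and 1.64 to 2.04 on WT PBS arrays. After LPS it was 2.98 to 3.32 on KO arrays and 2.02 to 3.36 on WT arrays. Their part in the Ctsg difference was not tested. Tpsg1, a membrane-bound tryptase, did not pass in any comparison. Tpsab1 had no probe, and Mcpt9 was well above background on 0 arrays.

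Of the 4 mucosal and basophil proteases only Prss34 was tested. Mcpt1 was well above background on 0 arrays and Mcpt2 on 1, a WT PBS array. Prss34, mouse mast cell protease 11 of basophils and mast cells, was well above background on all 12 arrays, with raw signals of 197 to 384. With LPS it did not pass in KO cells (0.23 ± 0.15) and rose with LPS in WT cells by 0.41 ± 0.15 (adjusted p = 0.0354, limma). It was lower in KO cells after LPS, at -0.45 ± 0.15 (adjusted p = 0.0381).

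The chymase genes lie in a cluster on chromosome 14 together with granzymes. Of 17 genes with a probe from Cma1 to Gzmb, 6 were well above background on all 12 arrays: Cma1, Mcpt-ps1, Cma2, Gm5801, Mcpt4 and Ctsg. Another 8 were so on 0 arrays, among them Mcpt1, Mcpt8 and Mcpt9 and the granzymes Gzmd, Gzme, Gzmf, Gzmg and Gzmn. Whether the probes tell these paralogs apart was not tested.

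Of the surface receptors, 8 of 10 were tested. Adora3, the adenosine A3 receptor, which in rodents enhances mast-cell release, read 1.80, 1.71 and 1.89 on KO LPS arrays, 0.46, 0.26 and 0.63 on KO PBS arrays, 2.67, 2.76 and 1.97 on WT LPS arrays, and 1.33, 1.56 and 0.72 on WT PBS arrays. It rose with LPS by 1.35 ± 0.22 in KO cells and 1.26 ± 0.22 in WT cells (adjusted p = 0.000211 and 0.000329, limma), and was lower in KO cells by -0.67 after LPS and -0.75 in PBS (adjusted p = 0.0335 and 0.0442). Il1rl1, the IL-33 receptor, rose by 0.65 ± 0.15 in KO cells and 0.39 ± 0.15 in WT cells (adjusted p = 0.00212 and 0.0363), but another of its 3 probes had -0.12 in WT cells. Ms4a2, the beta chain of the IgE receptor, fell by 1.20 ± 0.48 on the log2 scale in KO cells and by 2.11 ± 0.48 in WT cells (adjusted p = 0.0447 and 0.00222), with only 1 of 3 WT LPS arrays well above background. The other receptor subunit, the gamma chain gene Fcer1g, did not pass in KO cells (0.02) and rose by 0.29 ± 0.077 in WT cells (adjusted p = 0.00581). The Mas-related receptor genes Mrgprb1 and Mrgprb2 were well above background on 0 arrays and on 1.

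The genes of amine synthesis and storage did not move as a block. Slc18a2, the vesicular transporter that loads histamine into granules, rose with LPS by 0.49 ± 0.13 in KO cells and 0.35 ± 0.13 in WT cells (adjusted p = 0.00524 and 0.0314, limma). Srgn, serglycin, rose by 0.37 ± 0.097 and 0.48 ± 0.097 in KO and WT cells (adjusted p = 0.00537 and 0.000933). The heparan sulphate sulphotransferase genes Ndst1 and Ndst2 fell, Ndst1 with differences of -1.04 in KO (on 1 of its 2 probes) and -1.27 in WT cells, and Ndst2, which mast cells need for heparin, with -0.60 and -0.28. Hpgds, the prostaglandin D2 synthase of blood-forming cells, fell by 0.74 ± 0.14 in KO and 0.56 ± 0.14 in WT cells. Tph1, which makes serotonin, did not pass in any comparison.

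**Figure D4:**
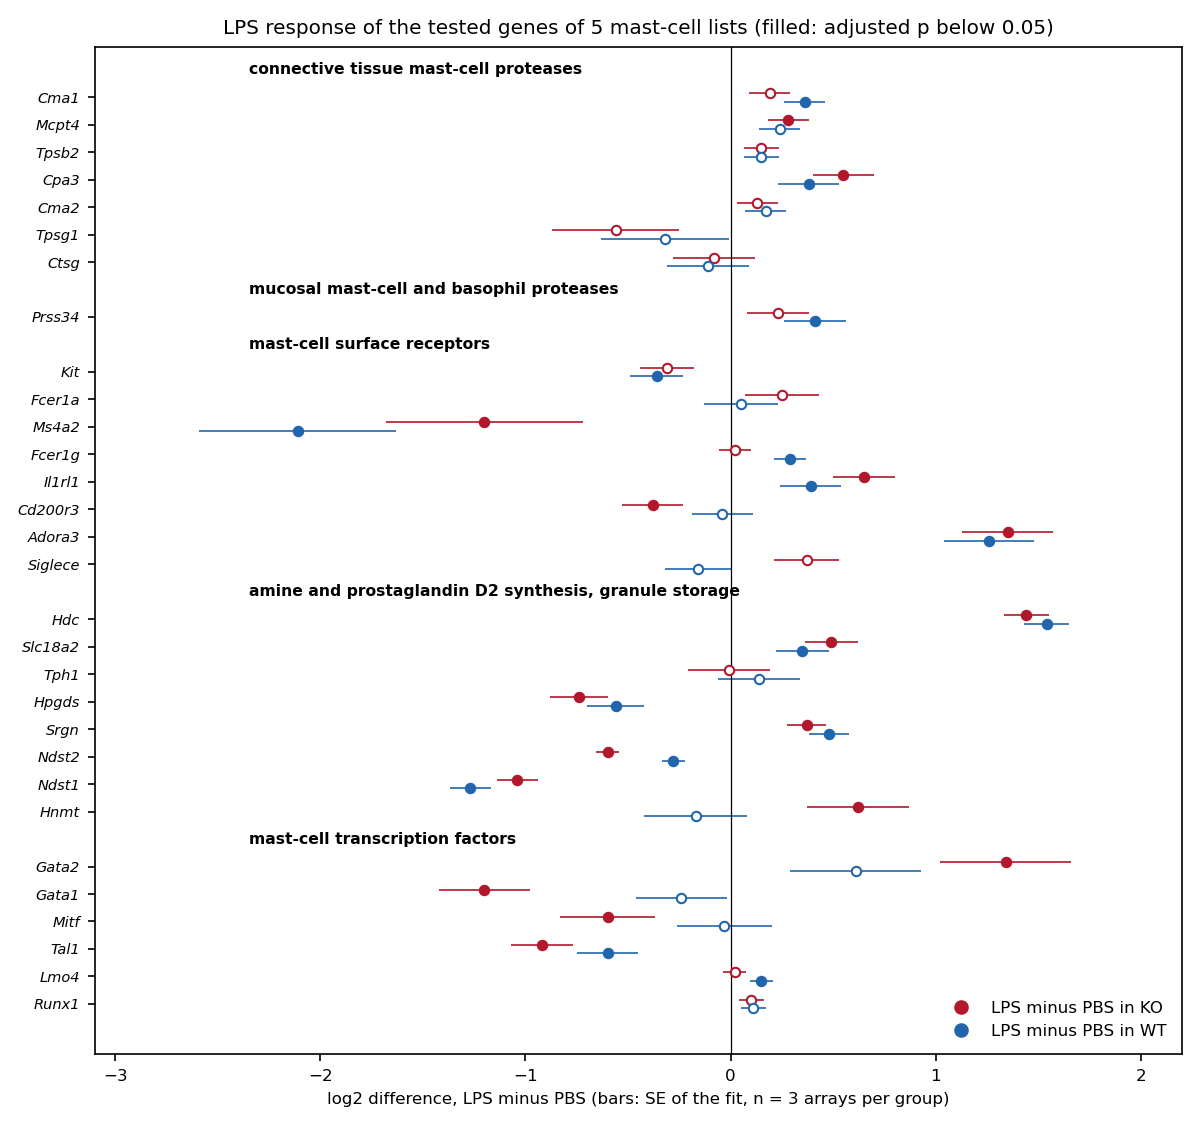
LPS responses (log2 difference, LPS minus PBS, horizontal axis) of the tested genes of 5 mast-cell lists in KO cells (red) and WT cells (blue). Bars are SE of the limma fit with n = 3 arrays per group and filled points passed an adjusted p of 0.05; Hdc (1.44 and 1.54) and Adora3 (1.35 and 1.26) lie far to the right in both genotypes, and Ms4a2 (-1.20 and -2.11) far to the left.

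Of 6 transcription factors of the lineage, Gata2, which mast cells need to develop, rose with LPS in KO cells by 1.34 ± 0.32 (adjusted p = 0.00295, limma) and was at 0.61 ± 0.32 in WT cells (adjusted p = 0.112). Gata1 and Mitf fell in KO cells, with differences of -1.20 and -0.60, and did not pass in WT cells (-0.24 and -0.03), while Tal1 fell in both, with -0.92 in KO and -0.60 in WT cells. None of the 6 passed for the interaction, so a difference between the genotypes was not shown. The GATAA match of the promoters above says nothing of these factors' activity.

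Growth factors and cytokines that act on mast cells were measured too, among them the ligand of KIT. Kitl, stem cell factor, fell with LPS by 1.34 ± 0.17 on the log2 scale in KO cells and 0.90 ± 0.17 in WT cells (adjusted p = 2.25e-05 and 0.000472, limma). Il33 rose by 1.54 ± 0.54 and 2.89 ± 0.54 in KO and WT cells (adjusted p = 0.025 and 0.000531), on 1 of its 2 probes. Il4 rose by 0.96 and 0.56. Il3, a growth factor of mouse mast cells, was at least 8.68-fold higher in WT LPS than in WT PBS cells, 0 of 3 arrays of WT PBS showing it well above background. The bound takes, for each WT PBS array, the dimmest probe that counted as well above background in place of the Il3 signal. The measured means were -0.96 and -4.99, and the adjusted p of 2e-04 in limma belongs to these and not to the bound. The filter kept Il3 only through the LPS groups, where it is high, so that p-value gives no independent support. In KO cells the measured difference was 3.56 ± 0.67, with 2 of 3 KO PBS arrays well above background.

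Of the 2 histamine receptors tested, Hrh1 rose with LPS by 1.70 ± 0.17 in KO cells and 1.35 ± 0.17 in WT cells (adjusted p = 3.9e-06 and 2.35e-05, limma). Hrh4 rose by 0.86 ± 0.26 in KO cells (adjusted p = 0.0119) and was at 0.09 ± 0.26 in WT cells. It read -3.87 and -3.96 on the KO PBS arrays of slide 1 and -2.79 on the KO PBS array of slide 2. On the KO LPS arrays, all on slide 2, it read -2.48, -2.75 and -2.80, which overlaps KO PBS. Only 2 of 3 KO PBS arrays were well above background for Hrh4. The part of the slide in this rise was not tested. Hnmt, which inactivates histamine inside cells, was well above background on 7 of 12 arrays only: 3 KO LPS, 2 KO PBS, 1 WT LPS and 1 WT PBS. Its LPS difference was 0.62 ± 0.25 in KO cells (adjusted p = 0.0408, limma) and -0.17 in WT cells. The filter kept Hnmt through the KO LPS group alone, where it was highest, so this p-value gives no independent support for a rise.

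Of the 13 tested genes of IgE receptor signalling, 8 were lower and 2 higher with LPS in KO cells, and 9 were lower and 2 higher in WT cells. Of all genes tested, 32% were lower and 35.1% higher in KO cells, and 31% lower and 33.7% higher in WT cells. Plcg2, Inpp5d, Lat2 and Btk, which act in B cells and macrophages as well, fell, with log2 differences of -0.86, -1.06, -0.90 and -0.99 in KO cells and -0.89, -1.23, -0.99 and -1.17 in WT cells. Lyn, the kinase that first phosphorylates the receptor, rose by 0.29 and 0.43, and the adaptor Lcp2 by 0.54 and 0.45. B-cell markers fell with LPS too, 5 of 7 in KO and 4 of 7 in WT cells. So did 8 of 11 macrophage markers in each genotype, while 1 rose in KO and 3 in WT cells. The part of either cell type in these falls was not tested.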

How the data were processed

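Total RNA of 12 cultures was labelled with Cy3 and hybridised to one-colour Agilent arrays. The deposited files hold the signal intensity of 62976 spots per array from Agilent Feature Extraction 11.5.1.1, per the file headers and the submitters' processing notes. Probes were named through RefSeq accessions (build GRCm38.p6). Each log2 intensity of the deposited files was reduced by the array's 75th percentile over non-control spots (469.6 to 574.1), spots of a probe were averaged, and the brightest probe well above background on all 3 arrays of a group stood for its gene. Between 48.8% and 57.1% of spots were well above background and 0 were saturated; the number of arrays limits the precision. One model with a mean per group was fitted in limma 3.58.1 (R 4.3.3), with Benjamini-Hochberg adjustment over 13283 genes, two-sided, at 0.05. The steps were tested on simulated data.

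The members and gene lists were chosen with earlier results of these data known. All members were named in each comparison, list genes were named with up to 4 by smallest p unless a role was described, and Mcpt-ps1, Cma2's values by array and others outside this rule were chosen after their values were seen. Alternatives were scaling by the median, over probes detected on all arrays or by quantiles, normexp, filters, probe choice, variance trend, arrays fitted, slide, replicate block and each array left out. Normexp used the median signal, since the mean signal was not at hand. Deviations of equal replicate numbers correlated at 0.105, 0.371 and 0.481 between the WT groups, which were taken as paired for the block among WT arrays. Between the KO groups, which were not taken as paired, they correlated at 0.04, 0.113 and 0.081. Equal numbers were each other's best match for WT replicates 2 and 3 and for KO replicates 1, 2 and 3, so matching alone did not favour WT. The main fit used no pairing.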

Additional observations from a re-analysis of the deposited data

Results flagged for a closer look

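Among the tested genes of the mast-cell lists, Ndst2, a sulphotransferase of heparin synthesis, was the only one whose LPS response differed between the genotypes in limma, by -0.32 ± 0.079 (adjusted p = 0.0463), and this call was easily lost. It passed in 7 of 23 alternatives, with differences of -0.37 to -0.22 and adjusted p between 0.0174 and 0.204, and in 3 of the 12 fits that left out 1 array each (adjusted p up to 0.131). Those 3 left out KO PBS replicate 3, WT LPS replicate 3 or WT PBS replicate 2, and with slide as a term the adjusted p was 0.168. It read 0.88, 0.96 and 0.92 on KO LPS arrays, 1.5, 1.56 and 1.49 on KO PBS arrays, 1.34, 1.40 and 1.25 on WT LPS arrays, and 1.62, 1.69 and 1.53 on WT PBS arrays. With LPS it fell by 0.60 ± 0.056 on the log2 scale in KO cells and by 0.28 ± 0.056 in WT cells, and its KO LPS arrays lay on slide 2, apart from all WT arrays.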

How the results depend on the processing

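The rise of Hdc with LPS passed in all 25 alternatives in KO (1.33 to 1.56) and all 26 in WT (1.31 to 1.63). Mcpt4 had a negative KO against WT difference in 24 of 24 alternatives after LPS and 25 of 25 in PBS, and passed in 23 and 22 of them. Cpa3 passed for LPS in WT in 10 of 26. Members passing numbered 2 to 5 for LPS in KO, 2 to 5 for LPS in WT, 2 to 4 for KO against WT after LPS, 0 to 6 for KO against WT in PBS and 0 to 0 for the interaction when each array was left out. In the same order, the share of all genes that passed ran from 58.8% to 71%, 59.7% to 68.9%, 27.8% to 45.8%, 7.04% to 19.7% and 2.67% to 21%. Without a WT PBS array, the count for KO against WT in PBS was 0 (replicate 1), 0 (replicate 2) and 6 (replicate 3), where 7.04%, 7.85% and 19.7% of all genes passed. Leaving out WT LPS replicate 3 gave 2 there (15.9% of all genes), and leaving out WT PBS replicate 1 gave 2 for LPS in WT (60.2% of all genes).

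For LPS in WT, 2 members passed when the percentile was taken over probes detected on all arrays, with quantile normalization, with only the arrays compared and with slide 1 alone. Of all genes, 65.3%, 64%, 65.3% and 66.9% passed in these fits, in that order. For LPS in KO, 6 passed with only the arrays compared, 1 with slide as a term and 7 without replicate 3 of both WT groups. The shares of all genes were 67.3%, 53% and 70.2%. For KO against WT in PBS, 2 passed with quantile normalization, 0 with only the arrays compared and 6 without both WT replicates 3. The shares of all genes were 15.5%, 6.71% and 24.9%. After LPS, 0 passed with slide as a term and 6 without both WT replicates 3, where 5.84% and 44.5% of all genes passed. Both WT replicates 3 were set aside after their values were seen, so the counts without them give no independent support. With the replicate block over 12 arrays, 4 passed for LPS in KO, 3 for LPS in WT, 2 for KO against WT after LPS, 1 in PBS and 0 for the interaction. In the same order, 67.5%, 64.7%, 39.3%, 14.6% and 4.34% of all genes passed. In KO arrays alone with the block, 6 passed, although the KO numbers were not taken as pairs, and 67.9% of all genes did. The cause of these changes was not tested.

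Directions turned only for values that had not passed. For LPS in WT, Tpsb2 was at -0.01 and Fcer1a at -0.10 with the percentile over detected probes, and Tpsb2 at -0.02 with quantiles. The interaction was -0.02 for Mcpt4 and -0.05 for Tpsb2 with median scaling, 0.02 for Hdc with quantiles, -0.03 for Tpsb2 with normexp, and -0.12, -0.01 and -0.05 for Mcpt4, Tpsb2 and Cpa3 with slide as a term. Without both WT replicates 3, Kit was at -0.08 for KO against WT in PBS and Hdc at 0.05 for the interaction. Leaving out each array, Fcer1a spanned -0.16 to 0.23 for LPS in WT and Kit -0.08 to 0.17 for KO against WT in PBS; the interaction spanned -0.05 to 0.14 for Mcpt4, -0.06 to 0.10 for Tpsb2, -0.05 to 0.21 for Kit and -0.19 to 0.04 for Hdc. The median of all genes moved by up to -0.13 for LPS in WT (percentile over detected probes) and to -0.12 for KO against WT after LPS (median scaling).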

Other observations

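Mcpt-ps1, annotated as a pseudogene beside Cma1, was chosen after its values were seen. Its raw signal lay between 2030 and 6240, and it rose with LPS by 1.49 ± 0.053 on the log2 scale in KO cells and by 1.69 ± 0.053 in WT cells (adjusted p = 1.19e-09 and 4.77e-10, limma), whereas Cma1 had 0.19 and 0.36. KO against WT did not pass for Mcpt-ps1 after LPS (-0.11) or in PBS (0.10). Which transcripts its probe measures was not tested.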
